A study of Saccharomyces cerevisiae with 12 samples.

Results

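The genes described here are the 8 metal reductase genes *FRE1* to *FRE8* and the copper transporter genes *CTR1* and *CTR3* of *Saccharomyces cerevisiae*. They were chosen by name, as the rows of the deposited tables that carry one of these 10 gene names, out of 6775 genes in all, and all 10 passed the filter on low counts in every comparison. Metal ions in the medium are mostly oxidized, and the Fre proteins of the cell surface are membrane flavocytochromes that pass electrons outward to reduce ferric and cupric ions before uptake. Some members of the family are known only as putative reductases or homologues, and Fre6p is sorted to the vacuole. The Ctr proteins carry the reduced copper across the plasma membrane, and copper is in turn needed by the multicopper oxidase Fet3p of the high-affinity iron uptake system. Most of these genes are known to be switched on when iron is scarce, through the activators Aft1p and Aft2p, or when copper is scarce, through the activator Mac1p.

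The samples came from the Cyc8 anchor-away strain (Cyc8-AA), a single MATa strain in the HHY221 background. All samples, controls included, carried *tor1-1*, a deletion of *FPR1*, *RPL13A* fused to 2xFKBP12 and *CYC8* fused to FRB, so that rapamycin removes Cyc8p from the nucleus through its FRB tag. Cyc8p is part of the Tup1-Cyc8 co-repressor, and its loss switches on the flocculin genes that make cells aggregate into flocs, which free mannose prevents. In the Flo- Cyc8-AA experiment, 3 samples received rapamycin (1 µg/ml) with mannose (0.25 M) (+Rap+Man). The other 3 received mannose with DMSO, the solvent of rapamycin, and no rapamycin (-Rap+Man). In the Flo+ Cyc8-AA experiment, 3 samples received rapamycin at the same dose (+Rap) and 3 received DMSO alone (-Rap). All were grown in YPD (2% glucose) to early log phase, each culture was divided and RNA was taken after 4 h. The Flo- libraries were read single-end and the Flo+ libraries paired-end, at a different time.

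Totals ran from 35905327 to 51088194 counts in the Flo- samples and from 26125728 to 30562700 in the Flo+ samples. A count under 3 cannot be told apart from 0, and the lowest raw count of any of the 10 genes in any sample was 29, for *FRE5* in 2 of the -Rap+Man samples. Values are given as normalized counts, that is, raw counts brought to a common library size, the mean of the 12 samples, with factors from the trimmed mean of M-values (TMM). In bulk RNA a change in the RNA of each cell and a change in the share of cells that express a gene cannot be told apart. *CYC8* itself, whose RNA does not check the labels because the protein and not the gene is removed, had a log2 change of -0.30 (standard error, SE, 0.14) in the Flo- and 0.42 (SE 0.14) in the Flo+ experiment. The 5 MATa marker genes summed to 85935 to 112017 raw counts in +Rap+Man, against 74291 to 105843 in -Rap+Man samples, and to 10569 to 14619 in +Rap, against 27058 to 36929 in -Rap samples. Of these 5, the pheromone genes *MFA1* (log2 change 1.88, SE 0.17) and *MFA2* (1.60, SE 0.12) rose in the Flo- experiment, and *BAR1* (-1.56, SE 0.14) and *STE6* (-1.13, SE 0.14) fell in the Flo+ experiment. The other values did not pass the thresholds given below. They were 0.34 (SE 0.15) for *STE2*, -0.12 (SE 0.18) for *BAR1* and -0.91 (SE 0.13) for *STE6* in the Flo- experiment. In the Flo+ experiment they were -0.35 (SE 0.28) for *MFA1*, 0.71 (SE 0.20) for *MFA2* and -0.95 (SE 0.23) for *STE2*. The 4 MATα marker genes had between 900 and 1862 raw counts per sample, most of them from *SAG1*. The summed MATα counts ran from 1134 to 1671 in +Rap+Man, against 1067 to 1862 in -Rap+Man samples, and from 900 to 1140 in +Rap, against 913 to 1044 in -Rap samples. *MF(ALPHA)1*, a pheromone gene with as few as 1 raw count in a sample and so not above the floor there, was the 1 of 4 MATα markers tested that rose with rapamycin in the Flo- experiment, at 176 ± 14.6 normalized counts in +Rap+Man and 12.4 ± 5.34 normalized counts in -Rap+Man samples (SD, n = 3 each). The part of these mating type genes in the results below was not tested.

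The promoters were searched for an exact letter sequence of each activator, and sites that differ from it were not counted. Windows of 500 bases before each start codon were read from the RefSeq S288c genome (R64), and both strands were searched for TGCACCC, a sequence bound by Aft1p, and for TTTGCTCA, a sequence bound by Mac1p. The Aft1p sequence was found in 6 of the 10 genes, against 140 of 6000 windows (2.33%) over all genes, and the Mac1p sequence in 2 of the 10, against 154 of 6000 (2.57%). The shorter cores contained in them, CACCC and GCTCA, are present in 33.5% and 47.3% of all windows and were not used further. *FRE7* and *CTR3* held neither of the longer sequences in this window, and no gene held both. For *CTR3* the window reaches into the Ty2 transposon gene *YLR410W-B*, which ends 456 bases before it. Sequence on the far side of that transposon was not searched, so the lack of a match in *CTR3* covers this window only. The stretches around the matches are printed on the strand of the gene, with the Aft1p sequence (or its reverse complement GGGTGCA) in capitals, in chromosome XI:11630-11676 for *FRE2*, XV:1055098-1055144 for *FRE3*, XIV:739494-739540 for *FRE4*, XV:1061213-1061360 for *FRE5*, XII:39587-39633 for *FRE6* and XII:241711-241757 for *FRE8*.
FRE2: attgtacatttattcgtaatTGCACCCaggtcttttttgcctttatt
FRE3: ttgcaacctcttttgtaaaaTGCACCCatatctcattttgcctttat
FRE4: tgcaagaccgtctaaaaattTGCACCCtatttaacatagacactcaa
FRE5: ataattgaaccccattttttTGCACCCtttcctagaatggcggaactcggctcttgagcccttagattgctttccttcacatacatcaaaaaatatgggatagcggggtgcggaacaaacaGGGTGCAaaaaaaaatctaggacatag
FRE6: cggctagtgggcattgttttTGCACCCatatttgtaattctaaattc
FRE8: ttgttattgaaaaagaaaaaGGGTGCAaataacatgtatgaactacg

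The Mac1p sequence occurred as a pair in both genes that had it, here in capitals (with its reverse complement TGAGCAAA in *CTR1*), in XII:568261-568325 for *FRE1* and XVI:785854-785923 for *CTR1*.
FRE1: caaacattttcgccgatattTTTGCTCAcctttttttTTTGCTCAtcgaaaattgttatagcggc
CTR1: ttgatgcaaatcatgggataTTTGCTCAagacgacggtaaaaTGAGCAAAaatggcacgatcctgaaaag

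The matches lay between 142 and 136 bases before the start codon in *FRE6* and no more than 437 bases before it in *FRE4*, the farthest of the 8 genes. In *FRE2*, *FRE3* and *FRE4* the Aft1p sequence began at nearly the same distance, 430, 427 and 437 bases before the start codon. *FRE2* and *FRE3* are also the most alike of the 10 coding sequences, with 77.5% identical bases over 2114 aligned bases, and *FRE4* shared 67.3% with *FRE2* over 1338 bases. A letter match describes the sequence only, and none of these promoters was assayed for binding here.

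Depletion of Cyc8p was followed by higher RNA of most of these genes in both experiments. In the Flo- Cyc8-AA experiment 8 of the 10 genes were upregulated in +Rap+Man against -Rap+Man samples, where 14.8% of the 6325 genes tested were upregulated. In the Flo+ Cyc8-AA experiment 7 of the 10 were upregulated in +Rap against -Rap samples, where 11.0% of 6100 genes were. A gene was called upregulated at an adjusted p of at most 0.01 (limma, Benjamini-Hochberg) and a log2 change of at least 1. The median log2 change of the 10 genes was 2.78 in the Flo- and 1.43 in the Flo+ experiment, beside -0.04 and -0.02 over all genes tested. All 10 genes had their 3 +Rap+Man samples above their 3 -Rap+Man samples, and 9 of 10 their +Rap samples above their -Rap samples, which held for 28.5% of all genes tested in each experiment. Together the 10 genes took between 0.312% and 0.317% of all counts in +Rap+Man samples, against 0.0289% to 0.0465% in -Rap+Man samples. Their share was 0.166% to 0.182% in +Rap samples, against 0.0355% to 0.0498% in -Rap samples.

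**Figure D1:**
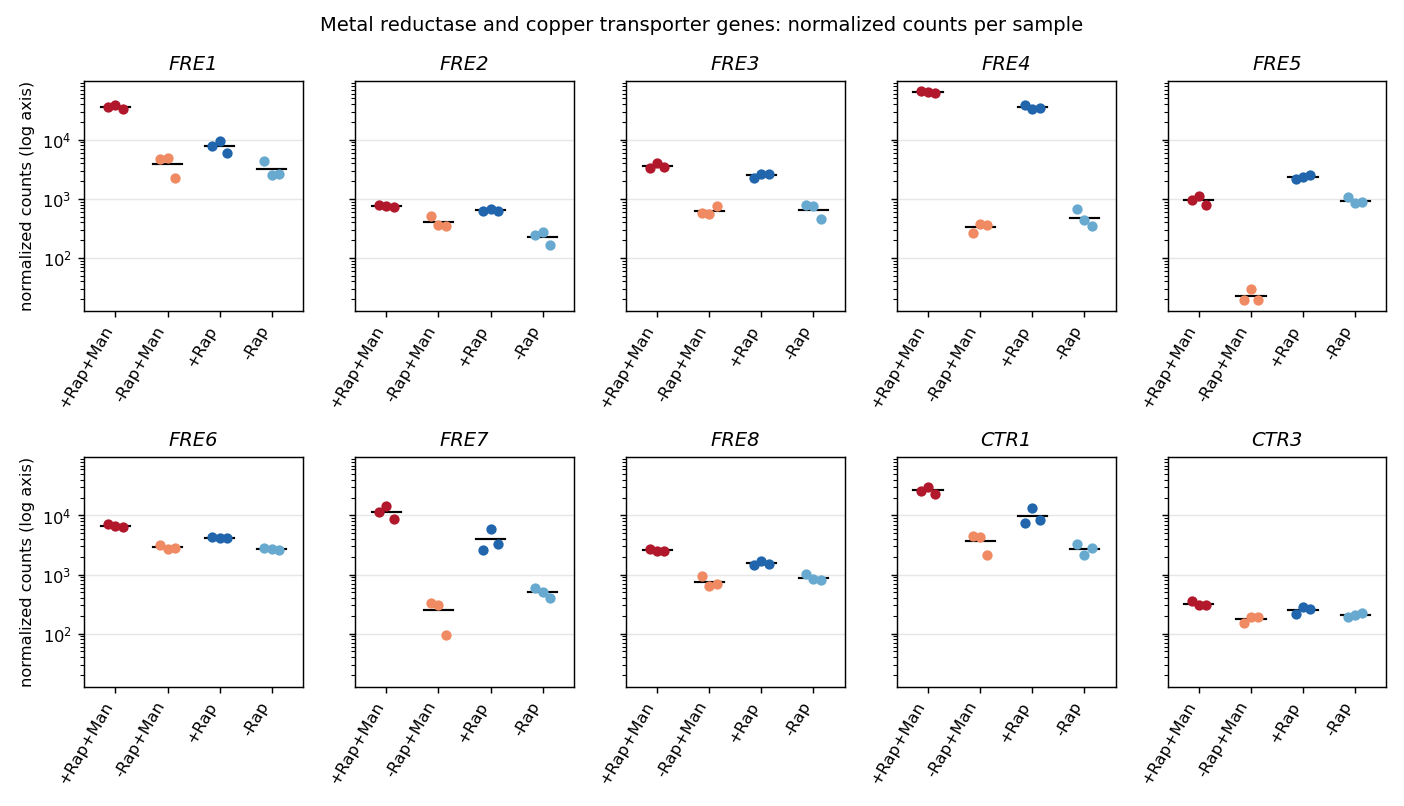
Normalized counts (log axis) of the 10 genes in each sample, with 3 replicate points and a line at their mean for the groups +Rap+Man, -Rap+Man, +Rap and -Rap. *FRE4* shows the widest gap in both experiments, and *FRE5* is the gene whose control levels differ most, at 22.9 in -Rap+Man and 936 in -Rap samples on average.

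*FRE4* encodes a ferric reductase that acts on a subset of iron bound to siderophores, the iron chelators that microbes release. It had 65654, 64721 and 62877 normalized counts in the 3 +Rap+Man samples, against 264, 376 and 364 in the -Rap+Man samples. In the Flo+ experiment it had 38604, 33578 and 34808 in the +Rap samples, against 661, 438 and 345 in the -Rap samples. Replicates of the depleted groups were close together, and every depleted sample stood far above every control. The log2 change was 7.63 (SE 0.14, limma adjusted p = 6.1e-10) in the Flo- and 6.26 (SE 0.22, limma adjusted p = 3.4e-07) in the Flo+ experiment. These were the largest changes among the 10 genes, exceeded by 33 of 6325 and by 30 of 6100 genes. *FRE4* alone gave between 39.6% and 44% of the counts of the 10 genes in +Rap+Man samples, against 1.74% to 3.76% in -Rap+Man samples, and between 45% and 57.1% in +Rap samples, against 3.04% to 4.42% in -Rap samples.

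*FRE2* and *FRE3* encode further surface reductases tied to iron. *FRE3*, which acts on iron bound to siderophores, had 3323, 4098 and 3479 normalized counts in +Rap+Man samples, against 569, 556 and 743 in -Rap+Man samples. Its counts were 2273, 2676 and 2669.9 in +Rap samples, against 773, 750.5 and 456 in -Rap samples. Neither experiment showed an overlap, and *FRE3* rose by a log2 change of 2.58 (SE 0.16, limma adjusted p = 1.3e-06) in the Flo- and 1.98 (SE 0.21, limma adjusted p = 0.0002) in the Flo+ experiment. *FRE2*, which reduces both ferric and cupric ions, had 773, 757 and 720.3 normalized counts in +Rap+Man samples, against 520.3, 361 and 350.0 in -Rap+Man samples. It had 625, 684 and 631 in +Rap samples, against 249, 276 and 164 in -Rap samples. All +Rap+Man samples lay above all +Rap samples by a small margin, and all -Rap+Man samples above all -Rap samples by a wider one. *FRE2* rose in the Flo+ experiment, with a log2 change of 1.52 (SE 0.20, limma adjusted p = 0.00067). In the Flo- experiment its log2 change of 0.92 (SE 0.19, limma adjusted p = 0.003) missed the fold threshold, which it passed at 1.12 (limma adjusted p = 0.00022) when -Rap+Man replicate 1, its highest control, was left out.

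*FRE5*, a putative ferric reductase, had 952, 1111 and 796 normalized counts in +Rap+Man samples, against 19.1, 29.9 and 19.6 in -Rap+Man samples. Its counts were 2168, 2370.2 and 2513 in +Rap samples, against 1059, 865 and 885 in -Rap samples. The +Rap+Man samples therefore lay at about the level of the -Rap samples, and only the -Rap+Man samples were near the bottom of the range. On the log2 scale *FRE5* rose by 5.29 (SE 0.22, limma adjusted p = 1.1e-07) in the Flo- and by 1.33 (SE 0.12, limma adjusted p = 9.7e-05) in the Flo+ experiment. On the linear scale the order was the other way, with a mean gain of 930.0 normalized counts in the Flo- and 1414 in the Flo+ experiment. The change of 5.29 fell on a base of 29, 35 and 29 raw counts, well above the floor of 3.

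*FRE6*, a putative ferric reductase that is sorted to the vacuole, and *FRE8*, a reductase homologue with a part in iron homeostasis, changed less. *FRE6* had 7281, 6604 and 6348 normalized counts in +Rap+Man samples, against 3135, 2683 and 2860.4 in -Rap+Man samples, and rose by a log2 change of 1.25 (SE 0.12, limma adjusted p = 4.5e-05). In the Flo+ experiment it had 4338, 4183 and 4154 in +Rap samples, against 2801, 2667 and 2622 in -Rap samples. The groups were far apart relative to their spread, but the log2 change of 0.65 (SE 0.10, limma adjusted p = 0.0013) was below the fold threshold. The ratio between same-numbered samples of the Flo+ experiment was 1.55, 1.57 and 1.58, the narrowest spread of the 10 genes. *FRE8* had 2713, 2475 and 2501 normalized counts in +Rap+Man samples, against 936, 652 and 684 in -Rap+Man samples. It had 1452, 1682 and 1497 in +Rap samples, against 1003, 851 and 818 in -Rap samples. Its groups did not overlap in either experiment, and it rose by 1.80 (SE 0.17, limma adjusted p = 2.6e-05) on the log2 scale in the Flo- experiment. In the Flo+ experiment its log2 change of 0.80 (SE 0.12, limma adjusted p = 0.0016) stayed below the fold threshold.

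*FRE1*, *FRE7* and *CTR1*, which low copper switches on through Mac1p, rose in both experiments. *FRE1*, a major surface reductase for both ferric and cupric ions, had 36184, 38163 and 33815 normalized counts in +Rap+Man samples, against 4742, 4841 and 2253 in -Rap+Man samples. It had 7803, 9693 and 5954 in +Rap samples, against 4348, 2521 and 2653 in -Rap samples. The groups did not overlap in either experiment, but the gap between them was far narrower in the Flo+ than in the Flo- experiment. *FRE1* rose by a log2 change of 3.30 (SE 0.27, limma adjusted p = 1.2e-05) in the Flo- and 1.32 (SE 0.25, limma adjusted p = 0.0041) in the Flo+ experiment. The Flo+ call was lost without -Rap replicate 2 (1.18, limma adjusted p = 0.014), +Rap replicate 1 (1.30, limma adjusted p = 0.019) or +Rap replicate 2 (1.14, limma adjusted p = 0.023).

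*FRE7*, a reductase homologue induced by low copper, had 11631, 14480.1 and 8606 normalized counts in +Rap+Man samples, against 335, 309 and 95.5 in -Rap+Man samples. Its counts were 2569, 5903 and 3296 in +Rap samples, against 602, 500.3 and 397 in -Rap samples. Replicates varied widely, yet no sample of a depleted group overlapped its controls. The log2 change was 5.73 (SE 0.43, limma adjusted p = 5.9e-06) in the Flo- and 2.90 (SE 0.30, limma adjusted p = 0.00018) in the Flo+ experiment. *CTR1*, the high-affinity transporter that brings in most copper when it is scarce, had 26437, 30733 and 23421 normalized counts in +Rap+Man samples, against 4527, 4274 and 2111 in -Rap+Man samples. It had 7549, 13595 and 8384 in +Rap samples, against 3272, 2158 and 2794 in -Rap samples. The groups did not overlap, and *CTR1* rose by a log2 change of 2.98 (SE 0.28, limma adjusted p = 2.7e-05) in the Flo- and 1.82 (SE 0.24, limma adjusted p = 0.0008) in the Flo+ experiment.

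-Rap+Man replicate 3 held the lowest count of its group for *FRE1*, *FRE7* and *CTR1*, and for *FRE2* as well. The highest -Rap+Man sample exceeded the lowest by 2.15, 3.51 and 2.14 times for *FRE1*, *FRE7* and *CTR1*, against 1.17 to 1.56 times for the other 7 genes. The ratio between same-numbered samples for *FRE7* ranged from 34.7 to 90.2 in the Flo- and from 4.27 to 11.8 in the Flo+ experiment.

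*CTR3* encodes the second high-affinity copper transporter, and in many laboratory strains a Ty2 transposon inserted before it keeps the gene silent. In the R64 annotation the nearest gene on its left is the Ty2 gene *YLR410W-B*, which ends 456 bases before it. *CTR3* had 352, 303 and 302 normalized counts in +Rap+Man samples, against 149, 193 and 193 in -Rap+Man samples, and 215, 279.7 and 264 in +Rap samples, against 194, 209 and 225 in -Rap samples. The Flo+ groups overlapped, with +Rap replicate 1 below -Rap replicate 3, and the Flo- groups did not. It passed the thresholds in neither experiment, with a log2 change of 0.87 (SE 0.17, limma adjusted p = 0.0026) in the Flo- and 0.27 (SE 0.15, limma adjusted p = 0.18) in the Flo+ experiment. *YLR410W-B* rose in the Flo- experiment (log2 change 2.70, SE 0.21, limma adjusted p = 8.5e-06) and had a log2 change of 1.97 (SE 0.47, limma adjusted p = 0.011) in the Flo+ experiment. Ty2 elements exist in many copies, and the counting of reads that align to several of them is not stated.

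**Figure D2:**
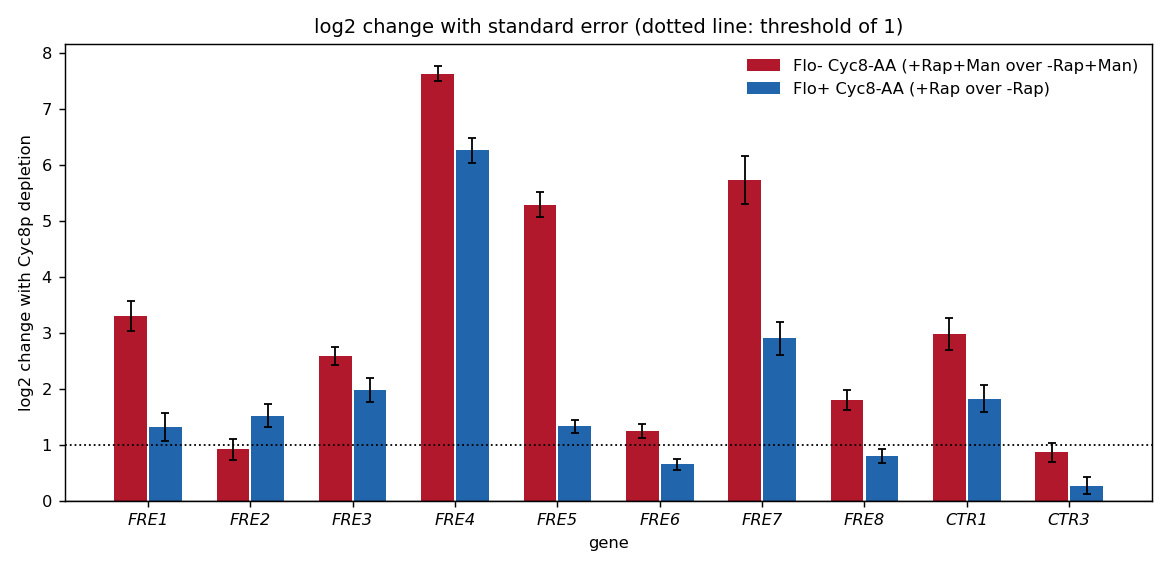
log2 change with Cyc8p depletion of each gene in the Flo- experiment (+Rap+Man over -Rap+Man) and the Flo+ experiment (+Rap over -Rap), with bars for the estimate and whiskers for its standard error. The dotted line marks a log2 change of 1, and *FRE4* reaches 7.63 and 6.26 while *CTR3* stays at 0.87 and 0.27.

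To compare levels between genes, mean normalized counts were divided by the coding length in kb. In +Rap+Man samples the order was led by *FRE4* at 29823 ± 654 per kb, *CTR1* at 22002 ± 3010 and *FRE1* at 17493 ± 1056 (SD, n = 3 each), followed by *FRE7*, *FRE6*, *FRE3*, *FRE8*, *FRE5*, *CTR3* and *FRE2*. Only *FRE5* and *CTR3* overlapped among neighbours of this order. In -Rap+Man samples *CTR1* (2979 ± 1088 per kb), *FRE1* (1914 ± 711) and *FRE6* (1352 ± 106) led with overlapping samples, and *FRE4* was eighth at 155 ± 28.5. *FRE8*, *FRE3*, *CTR3*, *FRE2*, *FRE4* and *FRE7* followed each other there with overlap at every step, and *FRE5* was lowest at 11 ± 2.92, apart from the rest.

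In the Flo+ experiment *FRE4* led the +Rap samples at 16511 ± 1213 per kb, ahead of *CTR1* at 8061 ± 2683 and *FRE1* at 3793 ± 907. *FRE1*, *FRE7* and *FRE6* overlapped at each step, as did *FRE3* with *FRE5* and *CTR3* with *FRE2*. In -Rap samples *CTR1* (2245 ± 458 per kb), *FRE1* (1540 ± 494) and *FRE6* (1261 ± 43.5) were again first, *FRE5* came next at 449 ± 51.3, and *FRE2* was lowest at 107 ± 27.3. *FRE4* moved up to first place in both experiments on depletion of Cyc8p, having been eighth in -Rap+Man and ninth in -Rap samples.

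The difference between the responses asks whether Cyc8p depletion acted differently without flocs. It was fitted over all 12 samples as the Flo- change minus the Flo+ change, and flocculation, mannose, run and read type all differ between the experiments and cannot be told apart. 4 of the 10 genes passed the thresholds, all with a larger rise in the Flo- experiment, where 2.61% of 6403 genes did so. The median log2 difference was 1.06 over the 10 genes and -0.01 over all genes tested. *FRE5* differed most, by 3.94 (SE 0.25, limma adjusted p = 2e-06), and 17 of 6403 genes had a higher difference. *FRE7* followed at 2.81 (SE 0.60, limma adjusted p = 0.0098), then *FRE1* at 1.95 (SE 0.41, limma adjusted p = 0.0088) and *FRE4* at 1.34 (SE 0.28, limma adjusted p = 0.0095).

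Among these 4, the call for *FRE5* held whichever sample was left out, with a highest adjusted p of 2.2e-05 from limma. In this fit, which does not use the pairing of same-numbered samples, the other 3 lay close to the threshold. With the replicate number as a block, the limma adjusted p was 0.003 for *FRE1*, 0.0036 for *FRE4* and 0.0015 for *FRE7*. The fits that left out 1 sample did not use the block. *FRE1* kept its call in 2 of 12 such fits, without -Rap+Man replicate 1 or 3, and had a difference of 1.59 to 2.14 over the 12 with a highest limma adjusted p of 0.028. *FRE4* kept its call in 2 of 12, without -Rap replicate 1 or 3, with a difference of 1.09 to 1.56 and a highest limma adjusted p of 0.028. *FRE7* kept its call in 3 of 12, without +Rap replicate 2 or -Rap+Man replicate 1 or 3, with a difference of 2.23 to 3.15 and a highest limma adjusted p of 0.03. Of the remaining genes, *FRE8* had a difference of 0.98 (SE 0.20, limma adjusted p = 0.0089), under the fold threshold, and passed both thresholds without -Rap replicate 3 (1.04) or -Rap+Man replicate 1 (1.14). The other 5 did not pass, with differences of 1.14 (SE 0.41) for *CTR1*, 0.57 (SE 0.27) for *FRE3*, 0.57 (SE 0.14) for *FRE6*, 0.57 (SE 0.22) for *CTR3* and -0.63 (SE 0.28) for *FRE2*. *FRE2* was the only member of the set with a negative difference.

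**Figure D3:**
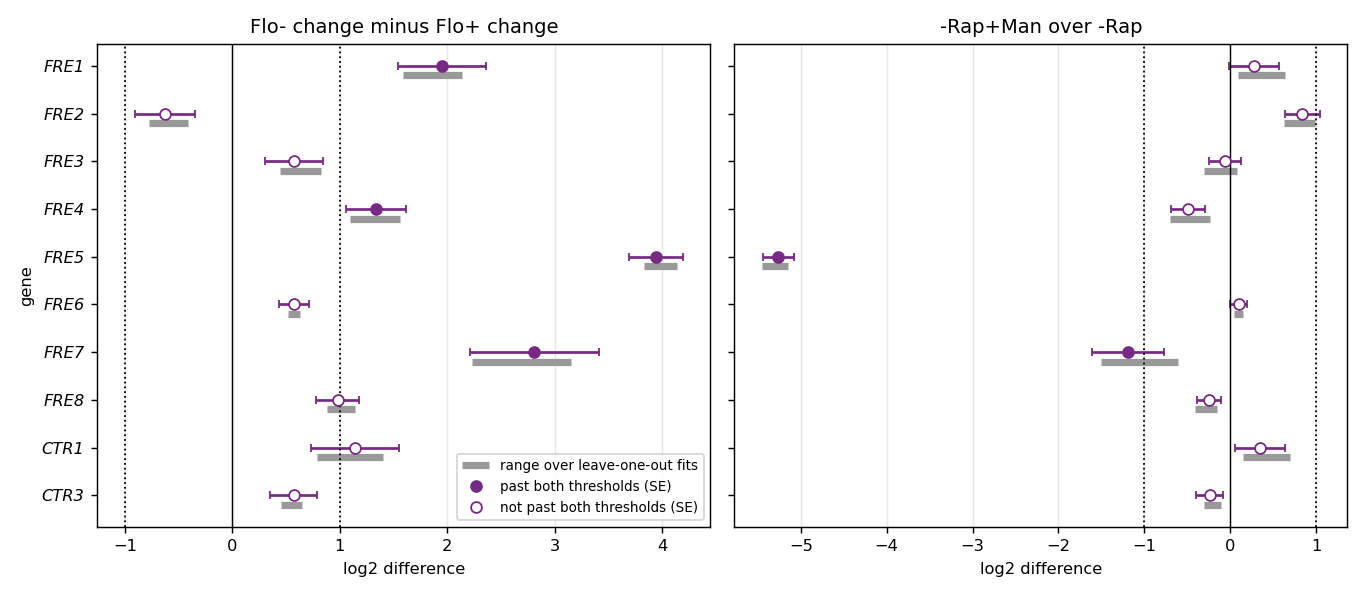
Left, the log2 difference between the changes of the 2 experiments (Flo- minus Flo+), and right, the log2 difference between the controls (-Rap+Man over -Rap), for each gene with its standard error. Filled points passed both thresholds, dotted lines mark log2 differences of -1 and 1, and grey bars span the fits that left out 1 sample each. *FRE5* lies at 3.94 on the left and -5.26 on the right.

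Controls of the 2 experiments were compared directly, -Rap+Man against -Rap, at the thresholds the study set for mannose, an adjusted p of at most 0.05 and a log2 difference of at least 1. This comparison shares its samples with those above, and mannose, run and read type cannot be told apart in it. 2 of the 10 genes were lower in -Rap+Man, where 11.3% of 6403 genes were. *FRE5* averaged 22.9 ± 6.1 normalized counts in -Rap+Man and 936 ± 107 in -Rap samples (SD, n = 3 each), a log2 difference of -5.26 (SE 0.18, limma adjusted p = 1.1e-10). *FRE7* averaged 247 ± 132 in -Rap+Man and 499.7 ± 102 in -Rap samples, a log2 difference of -1.19 (SE 0.42, limma adjusted p = 0.032). The *FRE7* call was lost without -Rap replicate 1 (-1.05), -Rap replicate 2 (-1.18) or -Rap+Man replicate 3 (-0.61, limma adjusted p = 0.13), the sample with 95.5 normalized counts. The -Rap+Man samples lay all above the -Rap samples in 1 of the 10 genes, *FRE2*, and all below them in 3, *FRE5*, *FRE7* and *CTR3*, beside 26.9% and 26.5% of all genes tested. *FRE2* had a log2 difference of 0.84 (SE 0.20, limma adjusted p = 0.0031), under the fold threshold. For the other 7 genes the estimates ran from -0.49 for *FRE4* to 0.35 for *CTR1*.

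The genes lie mostly near chromosome ends in the R64 annotation, where each is a single exon that overlaps no other gene. *FRE2*, *FRE3*, *FRE4*, *FRE5*, *FRE6* and *FRE7* were among the 20 outermost genes of a chromosome end, which 10.2% of 6002 protein-coding genes are. *FRE2* was the nearest, with 3 genes between it and the end of chromosome XI. *FRE3* (chromosome XV:1055545-1057680) and *FRE5* (XV:1061564-1063648) lie on the same strand with *YOR381W-A*, *FIT2* and *FIT3* between them. *FIT2* and *FIT3* encode cell wall mannoproteins that hold siderophore iron at the surface. *FIT2* averaged 106152 ± 26827 normalized counts in +Rap+Man and 309 ± 35.1 in -Rap+Man samples (SD, n = 3 each), a log2 change of 8.42 (SE 0.18, limma adjusted p = 1.3e-09), and changed by 6.56 (SE 0.22, limma adjusted p = 2.9e-07) in the Flo+ experiment. *FIT3* changed by 7.61 (SE 0.25, limma adjusted p = 1.7e-08) in the Flo- and 6.31 (SE 0.13, limma adjusted p = 2.1e-08) in the Flo+ experiment.

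Beyond this stretch the changes stayed under the fold threshold. The gene on the left of *FRE3*, *RDR1*, had log2 changes of 0.80 (SE 0.12, limma adjusted p = 0.00069) in the Flo- and 0.67 (SE 0.12, limma adjusted p = 0.0034) in the Flo+ experiment. The gene on the right of *FRE5*, *YOR385W*, had 0.36 (SE 0.51, limma adjusted p = 0.58) and -0.03 (SE 0.29, limma adjusted p = 0.94). *RDR1* thus passed the p threshold but not the fold threshold in both experiments, and *YOR385W* passed neither. *YOR381W-A*, inside the stretch, had 0.85 (SE 0.30) in the Flo- experiment, also under the fold threshold, and was not tested in the Flo+ experiment.

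**Figure D4:**
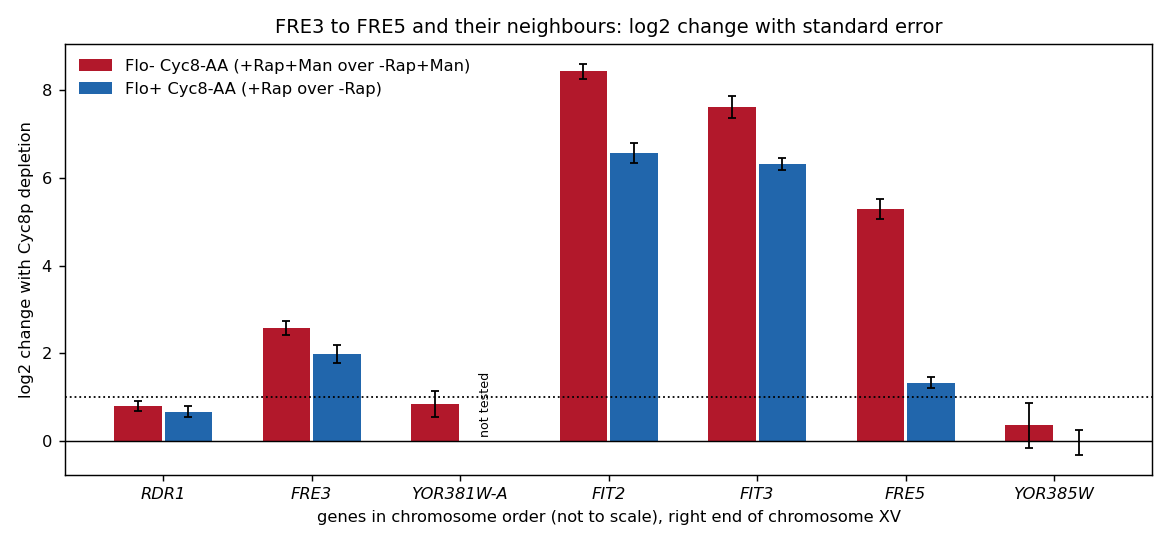
log2 change with Cyc8p depletion, with standard error, of the genes from *RDR1* to *YOR385W* in their order on chromosome XV (distances not to scale) in the Flo- and Flo+ experiments. The 4 genes *FRE3*, *FIT2*, *FIT3* and *FRE5* exceed the dotted line at a log2 change of 1, and the genes on both sides of them do not.

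Over all 10 genes there are 20 nearest neighbours, of which 6 of 19 tested rose in the Flo- and 5 of 18 in the Flo+ experiment, where 14.8% and 11.0% of all genes tested did. In the Flo- experiment these were *FIT3*, *YLR410W-B*, *CRR1* beside *FRE1* (log2 change 2.49, SE 0.20), *AQY2* beside *FRE6* (3.02, SE 0.25), *YLR046C* beside *FRE8* (1.94, SE 0.15) and *YNR061C* beside *FRE4* (1.15, SE 0.16). In the Flo+ experiment they were *FIT3*, *CRR1* (1.90, SE 0.12), *AQY2* (1.09, SE 0.22), *MCH2* beside *FRE2* (2.43, SE 0.14) and *GRE2* beside *FRE7* (1.65, SE 0.24). *CRR1* encodes a putative glycosidase of the spore wall, *AQY2* a water channel and *GRE2* a reductase induced by stress. No neighbour passed the thresholds downwards, with *CDC123* beside *FRE1* the lowest at -0.74 (SE 0.15) in the Flo- and -0.83 (SE 0.17) in the Flo+ experiment.

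Other genes of metal uptake were counted from lists drawn up by pathway. Over all genes tested, 14.8% rose in the Flo- and 11.0% in the Flo+ experiment, and 2.61% passed as a larger rise in the Flo- experiment. Of 11 iron uptake genes, which include the oxidase *FET3*, the permease *FTR1*, the *FIT* genes and the siderophore transporters, 9 rose in the Flo- and 9 in the Flo+ experiment, and 3 passed as a difference between them. The vacuolar pair *FET5* and *FTH1* did not pass, with log2 changes of 0.09 (SE 0.14) and 0.29 (SE 0.12) in the Flo- and -0.25 (SE 0.09) and -0.35 (SE 0.14) in the Flo+ experiment. Of 7 other metal uptake genes 4 rose in the Flo- and 3 in the Flo+ experiment. *FET4*, the low-affinity iron transporter, led with log2 changes of 3.14 (SE 0.14, limma adjusted p = 1.6e-07) and 2.11 (SE 0.16, limma adjusted p = 3.3e-05). *SMF3*, a vacuolar iron transporter, changed by 2.65 (SE 0.19) and 1.76 (SE 0.10), and *SMF1*, a manganese transporter, by 1.60 (SE 0.19) and 1.90 (SE 0.15), the Flo- value first in each case.

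Of 6 genes known to be driven by Mac1p, *FRE1*, *FRE7*, *CTR1* and *CTR3* belong to the set described above, and only *REE1* and *IRC7* are further genes. In each experiment 4 of the 6 rose, namely *FRE1*, *FRE7*, *CTR1* and *REE1*. Over all genes tested 14.8% rose in the Flo- and 11.0% in the Flo+ experiment. *REE1*, a regulator of enolase, averaged 135896 ± 7391 normalized counts in +Rap+Man and 5668 ± 1861 in -Rap+Man samples (SD, n = 3 each) and changed by 4.66 (SE 0.22, limma adjusted p = 2.3e-07) on the log2 scale, and by 2.80 (SE 0.13, limma adjusted p = 1.9e-06) in the Flo+ experiment. *IRC7*, a cysteine desulfhydrase, went the other way. In +Rap samples it averaged 2659 ± 388 normalized counts, against 8546 ± 1406 in -Rap samples (SD, n = 3 each), a log2 change of -1.68 (SE 0.16, limma adjusted p = 0.00013), and had -0.42 (SE 0.17, limma adjusted p = 0.057) in the Flo- experiment.

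Of 9 genes that handle copper inside the cell, 1 rose in the Flo- experiment, the vacuolar copper transporter *CTR2* at a log2 change of 1.38 (SE 0.16, limma adjusted p = 0.00011). Over all genes tested 14.8% rose in that experiment, a share close to 1 of 9. With limma 0 of 9 passed in the Flo+ experiment, where 5 had an unadjusted p under 0.05, 3 of them higher and 2 lower, and *CTR2* had 0.56 (SE 0.13). The metallothionein genes *CUP1-1*, *CUP1-2* and *CRS5* were not analysed here. The reductase homologue *AIM14* had log2 changes of -0.05 (SE 0.16) in the Flo- and 0.08 (SE 0.14) in the Flo+ experiment.

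The activators themselves showed small estimates. *MAC1* had a log2 change of -0.06 (SE 0.16) in the Flo- and 0.04 (SE 0.16) in the Flo+ experiment. *AFT1* had 0.18 (SE 0.18) and 0.10 (SE 0.21), *AFT2* -0.04 (SE 0.16) and -0.34 (SE 0.11), and *CUP2*, the activator of metallothionein genes, 0.18 (SE 0.31) and -0.27 (SE 0.25), the Flo- value first in each case. None of these 4 passed the thresholds in limma. Of 8 iron regulator genes in all, 1 rose in the Flo- experiment, *TIS11*, which promotes decay of mRNAs of iron-using pathways, at a log2 change of 4.19 (SE 0.23, limma adjusted p = 7.3e-07). A count of 1 of 8 is close to the 14.8% of all genes tested that rose in that experiment. In the Flo+ experiment 0 of 8 passed with limma and 3 had an unadjusted p under 0.05, and *TIS11* had 1.99 (SE 0.49, limma adjusted p = 0.013), and it passed without -Rap replicate 2 (1.38) or -Rap replicate 3 (2.42).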

How the data were processed

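RNA of 12 samples, 3 per group, was rRNA-depleted and sequenced strand-specifically. The authors trimmed reads (fastp 0.20.0), aligned them (STAR 2.7.3) to the Ensembl S288c genome and deposited raw counts per gene, together with counts divided by a DESeq2 size factor per sample. The counting tool, its strand setting, the handling of reads aligning to several genes and the annotation release are not given in the sources used here. The deposited fold changes and p-values of the authors were not used.

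The raw counts are written with digit separators, which the unit check could not read, and limma 3.58.1 (R 4.3.3) on log2 values was therefore chosen. The separators were removed before the fits, which left whole numbers in every cell. The counts themselves thus did not prevent a count model. Genes were kept if 3 or more samples reached what would be 10 counts in a library of median size and the total was 15 or more, counts were scaled by TMM factors (30% and 5% trimmed), 2 counts were added before log2, and lmFit and eBayes with trend were used. P-values were adjusted by Benjamini-Hochberg over all genes tested. Each experiment was fitted on its 6 samples, and the difference of responses and the control comparison on all 12. In tests on simulated data with 200 genes changed by 4 times, the code recovered the changes put in. The simulated counts had the same extra spread for every gene and no shift between runs, and the control comparison was not simulated. They therefore check the code and not the calls for these genes.

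Same-numbered samples of an experiment came from one culture divided in 2. Their deviations from group means correlated at 0.469, 0.201 and 0.224 (Flo-) and 0.185, 0.122 and 0.245 (Flo+), and the replicate number was a block in an alternative. Replicates are separate cultures of one strain. Alternatives changed the scaling, the low-count filter, the counts added, the weights, the threshold and the samples. Counts carry no molecular identifiers, so the floor of 3 counts covers counting error only.

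Coordinates and promoter sequences are from RefSeq R64, in which 6216 of the 6775 genes were found by systematic name. The deposited tables give no coordinates, and whether the release used by the authors has the same ones was not checked. Likeness between genes was computed with blastn 2.17.0. All 10 genes are named whether or not they passed a test, with their nearest neighbours and, in each pathway list, the 2 genes with the largest called change in each direction in each experiment. The metal regulators, *AIM14*, *IRC7*, *REE1*, *CTR2* and *CYC8* are named as well. *FET3*, *FTR1*, *FET5* and *FTH1* and the mating type genes were named after their values were seen. The genes and lists were chosen with earlier results of these data known.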

Additional observations from a re-analysis of the deposited data

Results flagged for a closer look

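The change with Cyc8p depletion differed between the experiments in 4 of the 10 genes (2.61% of all 6403 genes tested differed in this direction), tested as the Flo- change minus the Flo+ change with limma over all 12 samples. The log2 differences were 3.94 for *FRE5*, 2.81 for *FRE7*, 1.95 for *FRE1* and 1.34 for *FRE4*, each larger in the Flo- experiment. The calls for *FRE7*, *FRE1* and *FRE4* were lost in 9, 10 and 10 of the 12 fits that each left out 1 sample, and that for *FRE5* in 0. These fits did not use the pairing of same-numbered samples. In *FRE5* and *FRE7* the -Rap+Man controls were also lower than the -Rap controls, at 22.9 ± 6.1 against 936 ± 107 and 247 ± 132 against 499.7 ± 102 normalized counts (SD, n = 3 each). The *FRE7* controls differed by a log2 value of -1.19 (SE 0.42), a call lost without any 1 of 3 samples. In *FRE1* and *FRE4* the controls were not called different, with log2 differences of 0.28 (SE 0.29) and -0.49 (SE 0.20). All +Rap+Man samples lay above all +Rap samples in each of the 10 genes except *FRE5*, where all lay below, so this is not particular to *FRE1*, *FRE4* and *FRE7*. The share of all genes with such a separation was not computed, so it cannot be read as a trait of these genes. Between the controls, which also differ in run and read type, 26.9% of all genes tested separated upwards and 26.5% downwards. Mannose, run and read type differ between the experiments in the same way, and their part in these differences cannot be told apart from that of flocculation.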

How the results depend on the processing

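Of 670 repeats of the 4 comparisons on the 10 genes under alternative settings, 620 kept the direction and the side of the thresholds, 42 lost a call, 4 gained one and 4 changed sign. The total includes repeats with little room to change, as some changed only the p threshold. Others left out a +Rap or +Rap+Man sample from the fit of the controls, which does not compare these groups. Of the 42 lost calls, 35 fell among the 200 repeats of the difference. The sign changes were all of *FRE3* between the controls, which was not called and ranged from -0.30 to 0.08 with 1 sample left out. With 1 sample left out, members called ran from 8 to 9 (Flo-), 6 to 7 (Flo+), 1 to 4 (difference) and 1 to 2 (controls), and all genes called from 71 to 242 lower (Flo+) and from 107 to 184 higher and 26 to 89 lower (difference). For the difference, 2 members were called with no filter, with at least 10 counts in every sample or with 0.5 counts added, which lost *FRE4* and *FRE7*, and 5 with relative log expression factors, which added *FRE8*. At an adjusted p of 0.05, 299 genes were higher and 135 lower. For the controls, 461 genes were higher with at least 10 counts in every sample, and 1 member was lower at an adjusted p of 0.01. The cause of these changes was not tested. The replicate block changed no call of the 10 genes, with 8, 7 and 4 called higher in the Flo- and Flo+ experiments and their difference, and gave 978, 710 and 223 genes higher in all. The 3 samples per group limit the calls near a threshold.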
